A study of Mus musculus with 4 samples.

Results

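Condensin and cohesin are the ring-shaped protein complexes that fold and hold chromosomes. Here 10 genes for their subunits and for 1 cohesin-modifying enzyme were followed in intestinal crypts of control and beta-catenin mutant mice. The members were all probe sets named in the platform annotation for exactly 1 of Smc2, Smc4, Ncapd2, Ncapg, Ncaph, Smc1a, Smc3, Rad21, Stag1 and Esco2, which gave 30 probe sets of 45037 and 10 genes of 18193. Crypts, the epithelial pockets that hold stem cells, Paneth cells and dividing progenitors, had been cut from the intestine by laser capture microdissection. Each group held 2 arrays. Control mice were compared with beta-catenin mutant mice, 2 days after tamoxifen had been given to induce the deletion. Strain, age, segment of intestine, the driver of the recombinase and any tamoxifen given to controls are not stated in the labels. Nothing says that each array held a different mouse, so the p-values reflect the spread between these arrays, possibly only a technical one.

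In both complexes a pair of SMC proteins, long coiled-coil ATPases, forms the arms of the ring, and a kleisin subunit closes it. Condensin I joins Smc2 and Smc4 with the kleisin Ncaph and the HEAT-repeat subunits Ncapd2 and Ncapg, and it compacts chromosomes in mitosis. Cohesin joins Smc1a and Smc3 with the kleisin Rad21 and Stag1 or Stag2, holds sister chromatids together from replication to anaphase, and extrudes chromatin loops in interphase. Esco2 acetylates Smc3 during replication and so locks cohesion in place. The crypt is among the fastest dividing tissues of the body, and its progenitors depend on Wnt signalling through beta-catenin.

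Levels are given below as log2(signal + 5) after quantile normalization, and signals are the deposited linear values. A probe set was kept for testing where its mean log2 level over all arrays was at or above the median of all probe sets, and each gene is represented by its brightest probe set. Depth of reading does not apply to arrays, and their number limits the precision. The ratio of 5' to 3' probe signal for actin, which drops as RNA is shortened, ranged from 0.0448 to 0.149 over the 4 arrays, being higher on replicate 1 of each group. Mutant replicate 1 also held pancreatic enzyme transcripts: the summed signal of 10 measured acinar markers was 86041 there and between 1016 and 1558 in the other arrays. In those, Cpa1 and Cpb1 had signals of 3.33 or below, whereas Clps stood at 1022 and 1339 in controls and 873 in mutant replicate 2. The 10 epithelial markers of the labelled tissue had mean log2 levels between 10.43 and 10.75 in the 4 arrays. All 10 were kept, but so were the 10 measured acinar markers, so being kept does not show presence in each array. The deleted gene, Ctnnb1, differed by -0.56 (SE 0.22, limma adjusted p = 0.785) at its brightest probe set, where the deposited signals overlapped at 4700 and 5997 in controls against 5229 and 3449 in mutants. Its other kept probe set differed by 0.38 (SE 0.50), with overlap, and the deleted exons are not named in the labels, so these values do not check the deletion.

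At the brightest probe sets, the mean levels of these chromosome-structure genes were lower in the mutant crypts, with Stag1 as the exception, and no gene passed the test. Of the 10 genes, 9 were lower, and in the same 9 both mutant values lay below both control values, a pattern seen in 19.2% of the 11395 kept genes. A difference below 0 was found in 49.3% of kept genes. The median difference of the 10 genes was -0.78 on the log2 scale, against 0.01 over all kept genes. No single gene passed the test over all kept probe sets (0 of 10, limma, Benjamini-Hochberg adjustment), and over all 22519 kept probe sets 0 passed in either direction, which is 0% as the background. At an unadjusted p under 0.05, 6 members were lower, against 3.62% of kept genes, and over all kept probe sets 797 were lower and 618 higher. That count of 6 was 2 with the values as deposited, where 469 of 22519 kept probe sets were lower at this cut. It was also 2 with median centring, where 426 of 22519 were. With the 75th percentile filter it was 2 of 8 members, against 504 of 11260 probe sets. Without control replicate 2 the median difference of the 10 genes was -0.68. With median centring of the arrays in place of quantile normalization, 9 members were still lower, but in 5 (Smc4, Ncapg, Ncaph, Smc3 and Esco2) the groups did not overlap, against 10.1% of kept genes. With mutant replicate 1 left out for its pancreatic transcripts, 9 of 10 were lower with a median of -0.69. With the mean of all probe sets of each gene, 10 of 10 were lower. In that setting 8 were lower without overlap, against 18.0% of all genes, and the groups overlapped in Smc2 and Smc1a, not in Stag1.

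**Figure D1:**
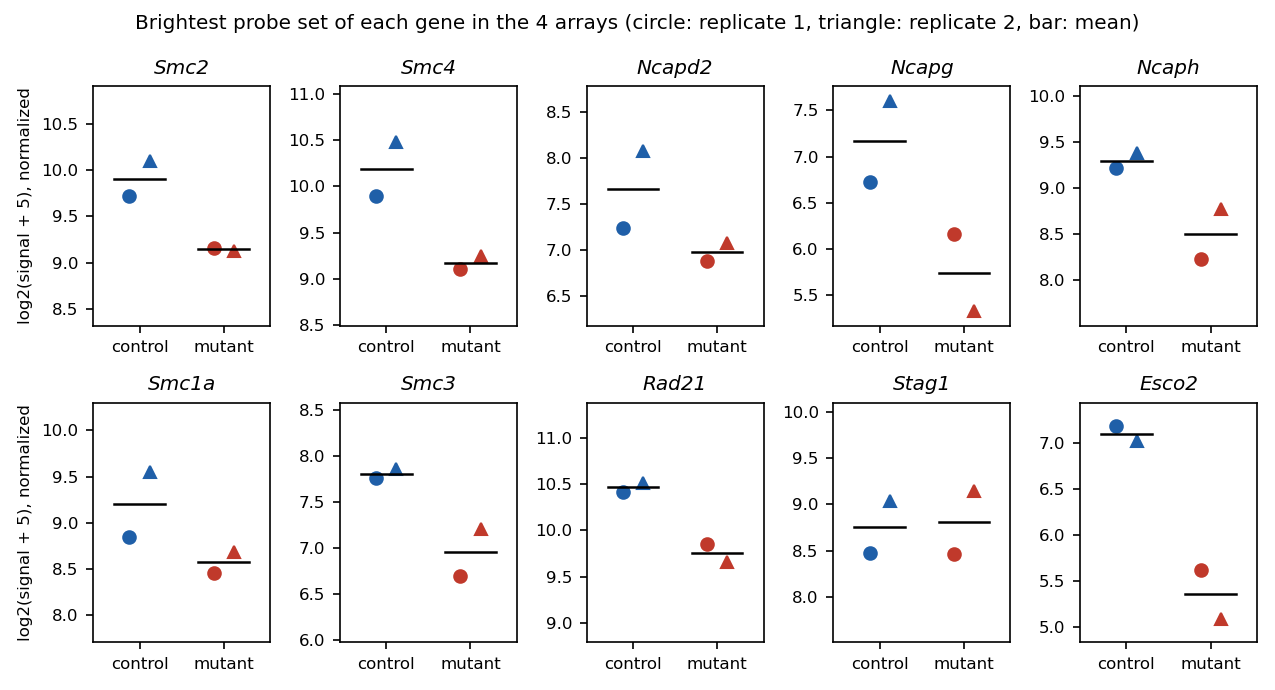
Normalized log2(signal + 5) of the brightest probe set of each of the 10 genes, by group; circles are replicate 1, triangles replicate 2, bars the mean of the 2 arrays, and every panel spans the same log2 range. In all panels except that of Stag1, both mutant points lie below both control points.

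The condensin genes are described first, beginning with the promoters of the 3 whose upstream sequence holds the letters of the cell cycle genes homology region, an element known from promoters of genes expressed in mitosis. Of the 10 members, 7 were matched in the RefSeq promoter table (GRCm38.p6), and Smc4, Rad21 and Esco2 were not. The 250 bases before the start were searched on both strands. The homology region was searched as TTTGAA, the box bound by NF-Y as CCAAT, and E2F sites as TTTCCCGC, TTTGGCGC, TTTGCCGC or TTTCGCGC. These motifs do not overlap one another in the printed sequences, and the capitals mark them, as TTCAAA or ATTGG where the match is on the other strand. The sequences, 5' to 3' on the gene's strand, are those of Smc2 at chr4:52438971-52439220 (plus strand), Ncapg at chr5:45669675-45669924 (plus strand) and Ncapd2 at chr6:125191587-125191836 (minus strand).
Smc2: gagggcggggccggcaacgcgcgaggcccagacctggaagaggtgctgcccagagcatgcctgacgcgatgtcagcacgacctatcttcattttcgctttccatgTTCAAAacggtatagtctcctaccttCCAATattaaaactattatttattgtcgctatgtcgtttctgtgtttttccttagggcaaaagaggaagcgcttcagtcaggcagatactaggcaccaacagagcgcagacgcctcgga
Ncapg: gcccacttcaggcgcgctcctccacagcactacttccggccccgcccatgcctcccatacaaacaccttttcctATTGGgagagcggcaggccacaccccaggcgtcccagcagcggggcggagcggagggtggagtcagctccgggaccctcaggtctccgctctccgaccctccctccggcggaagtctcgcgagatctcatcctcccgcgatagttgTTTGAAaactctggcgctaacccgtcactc
Ncapd2: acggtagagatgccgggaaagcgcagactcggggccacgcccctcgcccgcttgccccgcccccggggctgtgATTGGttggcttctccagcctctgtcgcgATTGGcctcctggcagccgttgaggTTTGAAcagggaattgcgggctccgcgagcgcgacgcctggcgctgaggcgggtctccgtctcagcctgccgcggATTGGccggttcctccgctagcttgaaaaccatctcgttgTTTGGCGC

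TTTGAA was found in 3 of the 7 member promoters, these 3, and in 16% of all 32851 promoters of the table. Its leftmost base lay 145 bases upstream of the start in Smc2, 123 in Ncapd2 and 30 in Ncapg. CCAAT was found in 5 of 7 (the same 3, Smc1a and Stag1) and in 33.8% of all promoters, with 3 copies in Ncapd2. An E2F spelling was found in Ncapd2 and Stag1, and in 1.86% of all promoters. CTTTGAT, the core letters of a TCF site through which beta-catenin acts, was found in 0 of 7 and in 3.21% of all promoters. A match describes letters in this window only.

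Smc2, which forms the condensin arm with Smc4, had log2 levels of 9.72 and 10.10 in control crypts, against 9.16 and 9.13 in mutant ones, replicate 1 being given first here and below. Both mutant values were below both controls, and the difference was -0.76 (SE 0.32, limma adjusted p = 0.785). The deposited signals were 776 and 1067 in controls and 748 and 458 in mutants, so that control replicate 1 and mutant replicate 1 stood close before scaling. Smc4, its partner, stood at 9.89 and 10.48 in controls and 9.10 and 9.25 in mutants. Its difference was -1.01 (SE 0.33, limma adjusted p = 0.768), which is 2.02-fold lower on the log2(signal + 5) scale. Mutants were again below controls with no overlap, and the deposited signals of 877 and 1381 against 715 and 496 did not overlap either. In fold terms Smc2 was 1.70-fold lower.

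The non-SMC subunits of condensin I lay lower as well, by differing amounts. Ncapg, a HEAT-repeat subunit that contacts DNA with the kleisin, stood at 6.73 and 7.60 in controls and 6.16 and 5.33 in mutants. Its difference of -1.42 (SE 0.46, limma adjusted p = 0.768) was the lowest among the 5 condensin genes, and the groups did not overlap, although the gap within each group was over 0.8. Leaving out control replicate 2 gave -0.98 and leaving out control replicate 1 gave -1.86. Ncaph, the kleisin, stood at 9.21 and 9.38 in controls and 8.23 and 8.77 in mutants, a difference of -0.79 (SE 0.35, limma adjusted p = 0.789) that was -0.52 without mutant replicate 1. Ncapd2, the other HEAT-repeat subunit, had 7.24 and 8.08 in controls and 6.88 and 7.08 in mutants. Here the difference of -0.68 (SE 0.40, limma adjusted p = 0.817) came with a gap of 0.17 between the nearest values of the 2 groups, smaller than the 0.83 between the controls. For Ncapd2 the difference became -0.27 when control replicate 2 was left out, and -1.10 when control replicate 1 was. Within each array the SMC pair was set against the 3 other subunits: the mean of Smc2 and Smc4 minus that of the others differed between groups by 0.08, with the groups overlapping.

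Cohesin was covered by its ring subunits, 1 of its STAG subunits and its acetyltransferase. Smc1a, an SMC arm, stood at 8.85 and 9.55 in controls and 8.45 and 8.69 in mutants, with a difference of -0.63 (SE 0.37, limma adjusted p = 0.817). Leaving out control replicate 2 gave -0.28, and leaving out control replicate 1 gave -0.98. Its deposited signals, 431 and 730 in controls and 442 and 329 in mutants, overlapped between the groups. Smc3, the other arm and the target of Esco2, stood at 7.76 and 7.86 in controls and 6.70 and 7.21 in mutants, a difference of -0.85 (SE 0.37, limma adjusted p = 0.787). The controls were close to each other, and both mutants lay at least 0.55 below them.

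Rad21, the kleisin that separase cuts at anaphase, had 10.42 and 10.51 in controls and 9.85 and 9.66 in mutants. The difference was -0.71 (SE 0.29, limma adjusted p = 0.785), 1.63-fold lower, and the replicates of each group differed by less than 0.2 at this probe set. The deposited signals were 1246 and 1407 in controls and 1207 and 684 in mutants, so the distance of mutant replicate 1 from the controls rests on the scaling: with median centring the groups overlapped and the difference was -0.42. The other kept probe set, 1455938_x_at, stood at 11.26 and 9.82 in controls and 9.75 and 9.26 in mutants, with 0.07 between the groups. Its deposited signals overlapped, at 2175 and 887 against 1121 and 500.

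Stag1, which binds Rad21 and shares its place in the ring with Stag2, was the member whose groups overlapped at the brightest probe set. Its brightest probe set stood at 8.47 and 9.03 in controls and 8.47 and 9.15 in mutants, a difference of 0.05 (SE 0.39, limma adjusted p = 0.989). The sign was not stable: it was -0.23 without control replicate 1, -0.29 without mutant replicate 2 and -0.30 with the mean of all its probe sets. Of its 3 other kept probe sets, 1450420_at stood at 6.48 and 6.52 in controls and 5.80 and 5.90 in mutants, with no overlap and a difference of -0.65 (SE 0.36), while 1431921_a_at gave -0.47 (SE 0.37) and 1441724_at 0.06 (SE 0.47). The probe sets of Stag1 thus disagreed in sign, and which transcripts each detects was not analysed here. Relative to the mean of Smc1a, Smc3 and Rad21 in the same array, the brightest Stag1 probe set lay 0.78 higher in mutants, with no overlap between groups. Stag2, named after its values were seen, had 9.90 and 9.85 in controls and 9.66 and 8.64 in mutants, a difference of -0.72 (SE 0.39, limma adjusted p = 0.802). That of Stag2 was -0.21 without mutant replicate 2, -1.23 without mutant replicate 1 and -0.24 with the mean of all its probe sets. The Stag1 promoter lies at chr9:100643198-100643447 on the plus strand. It holds CCAAT on the other strand and the E2F letters TTTCCCGC 17 bases upstream of the start, and no TTTGAA. The promoters of Ncaph, Smc1a and Smc3 held no TTTGAA either, yet these genes were lower without overlap (-0.79, -0.63 and -0.85). Those of Ncaph and Smc3 held none of the searched motifs. Any relation of these letters to the differences was not tested.
Stag1: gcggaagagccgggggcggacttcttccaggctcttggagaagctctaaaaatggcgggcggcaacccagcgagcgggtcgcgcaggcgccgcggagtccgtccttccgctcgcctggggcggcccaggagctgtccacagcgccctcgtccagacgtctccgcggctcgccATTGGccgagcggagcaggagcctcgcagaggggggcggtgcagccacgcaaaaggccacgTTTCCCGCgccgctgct

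Esco2, the acetyltransferase that acts on Smc3 in S phase, showed the lowest difference of the 10. It stood at 7.18 and 7.02 in controls and 5.62 and 5.09 in mutants, from deposited signals of 145 and 124 against 49.4 and 24.6. The gap of 1.39 between the nearest control and mutant values was larger than the spread within either group. The difference was -1.74 (SE 0.38, 3.34-fold lower on the log2(signal + 5) scale), with a limma adjusted p of 0.768. Over the alternatives run, the difference ranged from -2.00 to -1.26 and the adjusted p from 0.163 to 0.927, so that no setting brought it past the test. Only 0.176% of kept genes had a lower difference. In the same arrays, Esco2 lay 1.01 lower in mutants relative to the mean of Smc1a, Smc3 and Rad21, with no overlap between the groups. Its second probe set, 1456311_x_at, fell below the filter on dim signal, and stood at 5.88 and 4.90 in controls and 3.97 and 2.60 in mutants.

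At the level of single probe sets, 25 of the 30 had a lower mean in mutants, against 49.9% of all 45037 probe sets with no filter, and 14 of 30 had both mutant values below both controls, against 17.6%. The filter kept 23 of the 30. The 5 that did not lie lower were 1434189_at and 1441724_at of Stag1 and, all below the filter, 1429659_at of Smc2, 1417832_at of Smc1a and 1416162_at of Rad21, with differences between 0.05 and 0.32. The 3 kept probe sets of Smc4 lay closest together, between -1.23 and -1.01. For Smc2 the 3 kept ones spanned -1.09 to -0.50, and for Rad21 the 2 kept ones gave -0.71 and -1.04. The second Ncapg probe set gave -2.20 (SE 1.04), the largest size and the largest error of the 30, with deposited signals of 194 and 43.3 in controls and 1.60 and 54.6 in mutants. The suffix _x_at, carried by the brightest Ncaph probe set, marks probes that may bind other transcripts. The other Ncaph probe set, 1423920_at, differed by -0.49 (SE 0.40), with the groups overlapping. The second Ncapd2 probe set, 1430010_at, differed by -0.42 (SE 0.43), also with overlap.

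**Figure D2:**
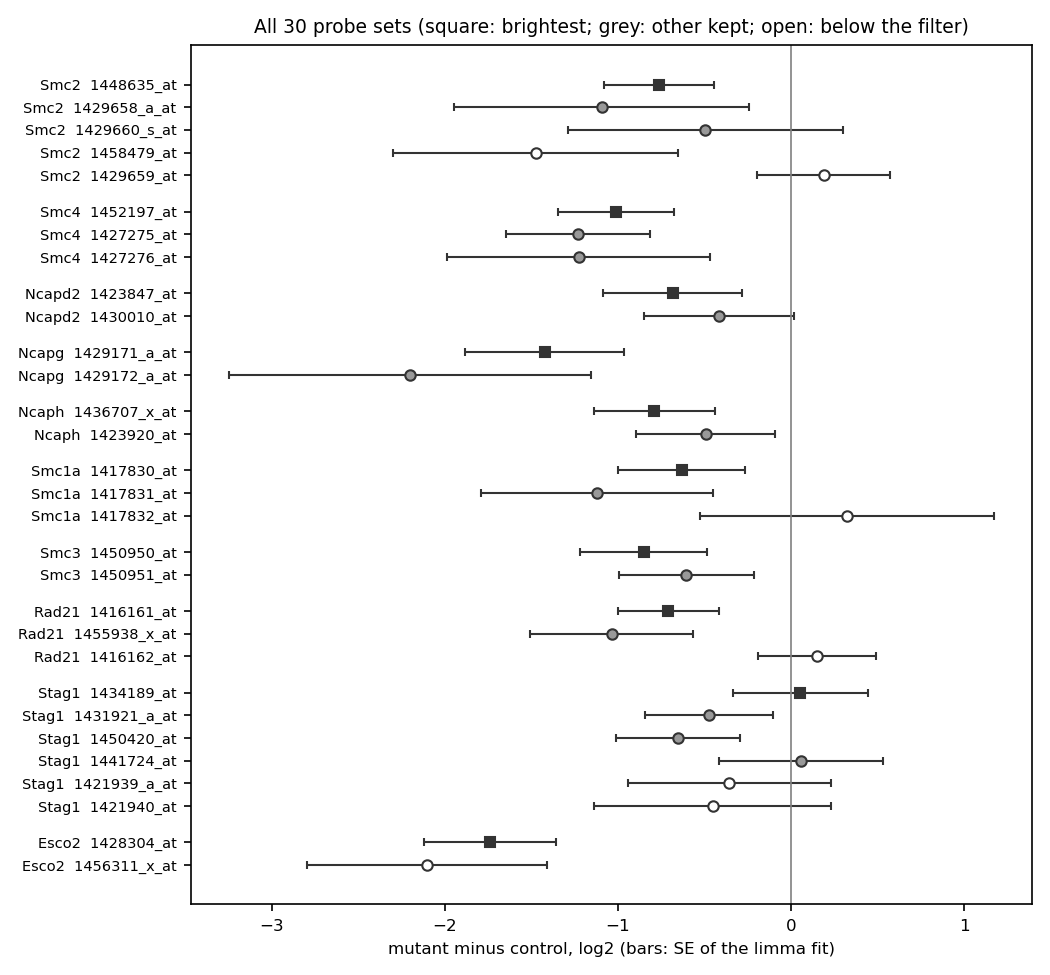
Difference between mutant and control (log2) of each of the 30 probe sets, with the SE of the limma fit (the fit of all probe sets for those below the filter); squares are the brightest probe set of a gene, grey circles other kept ones and open circles those below the filter. All kept probe sets lie to the left of 0 except 2 of Stag1.

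The order of the replicates depended on the probe set. In 9 of the 10 brightest probe sets control replicate 2 was above control replicate 1, by a median of 0.47 over the 10. In 11 of the 13 other kept probe sets control replicate 1 was above control replicate 2, by a median of 1.0 over the 13. In these 13, mutant replicate 2 was above mutant replicate 1 in 11, by a median of 0.62. Over all 22519 kept probe sets control replicate 2 was the higher control in 12231 and mutant replicate 2 the higher mutant in 11811. Smc4 shows this: its probe set 1427275_at stood at 10.69 and 9.69 in controls and 8.65 and 9.27 in mutants, so that control replicate 1 was the highest array there and control replicate 2 in the brightest probe set. Smc2 (1429658_a_at) had signals of 174 and 30.0 in controls and 13.2 and 63.9 in mutants, and Smc1a (1417831_at) 379 and 130 against 60.3 and 152. In both, mutant replicate 2 lay above control replicate 2, so the groups overlapped. Of the 13 other probe sets, 12 had a lower mean in mutants, against 50.2% of all kept probe sets, and 4 did so without overlap, against 18.9%. The beta-actin 5' to 3' ratio was 0.149 and 0.0567 in the controls, the same order as in these probe sets, and 0.0945 and 0.0448 in the mutants, the opposite order; its part in the pattern was not tested.

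**Figure D3:**
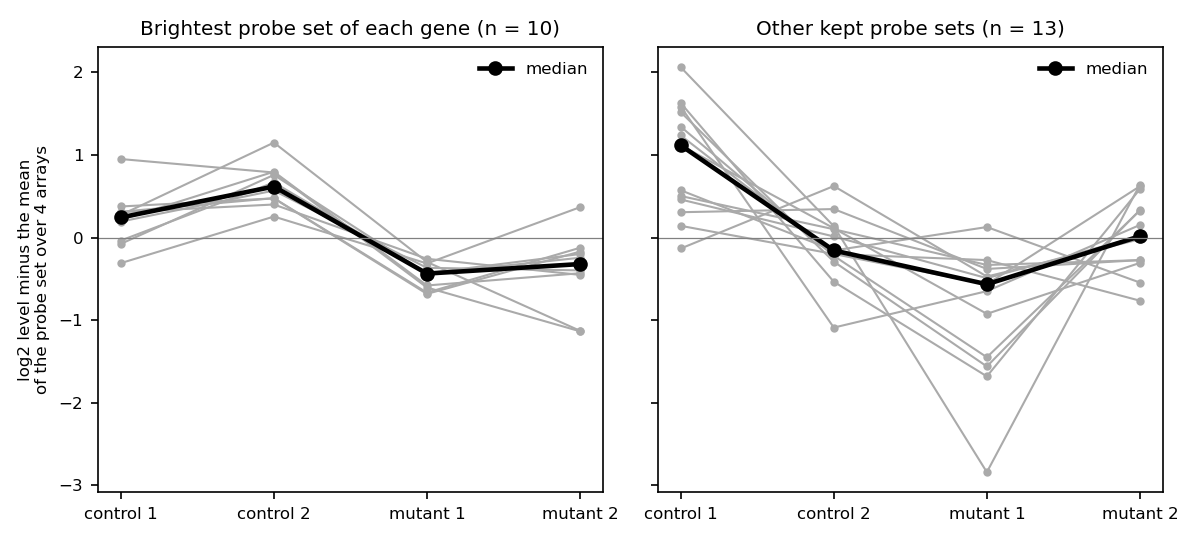
Log2 level in each array minus the probe set's mean over the 4 arrays, for the brightest probe set of each gene (left) and the other kept probe sets (right); grey lines join the values of 1 probe set and the black line is the median. On the left control replicate 2 is highest in 8 of 10 probe sets, on the right control replicate 1 has the highest median.

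The genes around the 2 complexes were taken from a list of 36, of which 35 were measured and 32 kept. Of the 32 kept genes 28 were lower and 4 higher, with 17 lower without overlap (background 19.2%) and a median of -0.51. None passed the test (0 of 32, limma; 6 lower and 0 higher at an unadjusted p under 0.05, against 3.62% and 3.32% of kept genes). All 3 subunit genes specific to condensin II, the form that is nuclear throughout the cycle, were lower without overlap. Ncapg2 stood at 7.91 and 8.14 in controls and 6.67 and 6.40 in mutants, a difference of -1.50 (SE 0.35, limma adjusted p = 0.768). Ncapd3 differed by -0.94 (SE 0.35), or by -0.19 with the mean of all its probe sets. Ncaph2, named after its values were seen, differed by -0.47 (SE 0.33), or by -0.28 with median centring.

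The listed factors that load cohesin and release it were Nipbl, Mau2, Wapl, Pds5a and Pds5b. All 5 were lower, 4 of them without overlap (background 19.2%), with a median of -0.55. The loader gene Nipbl stood at 9.87 and 9.64 in controls and 9.37 and 8.88 in mutants, a difference of -0.63 (SE 0.33, limma adjusted p = 0.798), while its deposited signals overlapped at 861 and 776 against 872 and 378. The Nipbl difference was -0.39 with median centring, -0.38 without mutant replicate 2 and -0.29 with the mean of all its probe sets. Of 8 listed genes of cohesion establishment and of the cycle of Smc3 acetylation, 7 were kept. All 7 were lower, 3 of them without overlap (background 19.2%). Dscc1, part of a clamp loader needed for cohesion, had 7.30 and 7.45 in controls and 6.27 and 5.47 in mutants, a difference of -1.51 (SE 0.40, limma adjusted p = 0.768) that was -0.36 with the mean of all its probe sets. Cdca5 encodes sororin, which keeps the release factor off acetylated cohesin, and differed by -1.04 (SE 0.38, limma adjusted p = 0.772).

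Of 4 genes that protect or end cohesion, 3 were lower and 1 was higher, with a median of -0.42. Sgo1, the shugoshin that guards centromeric cohesin, stood at 7.77 and 7.85 in controls and 6.89 and 6.78 in mutants, a difference of -0.98 (SE 0.34, limma adjusted p = 0.768). Pttg1, which encodes securin, the inhibitor of separase, had 11.12 and 11.78 in controls and 11.29 and 12.09 in mutants. Its groups overlapped, with a difference of 0.24 (SE 0.35, limma adjusted p = 0.933) that was -0.09 without control replicate 1 and -0.16 without mutant replicate 2. The SMC5/6 complex, a further SMC ring that acts in repair, had 5 of 6 genes lower with a median of -0.15. Of the 6, 1 was lower without overlap, near the background of 19.2%. This was Nsmce4a, with a difference of -0.77 (SE 0.37) that was -0.44 without control replicate 2. Among partners in condensation, Top2a, the topoisomerase that works beside condensin, differed by -1.09 (SE 0.36, limma adjusted p = 0.768), or by -0.41 with the mean of all its probe sets. The kept genes that were higher were Pttg1, Nsmce1 (0.18), Mcph1 (0.17) and Akap8 (0.01), named after their values were seen. Each of these 4 turned below 0 without mutant replicate 2 (to -0.16, -0.032, -0.20 and -0.39). Of 3 measured meiotic cohesin genes, 2 (Smc1b and Stag3) were below the filter.

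**Figure D4:**
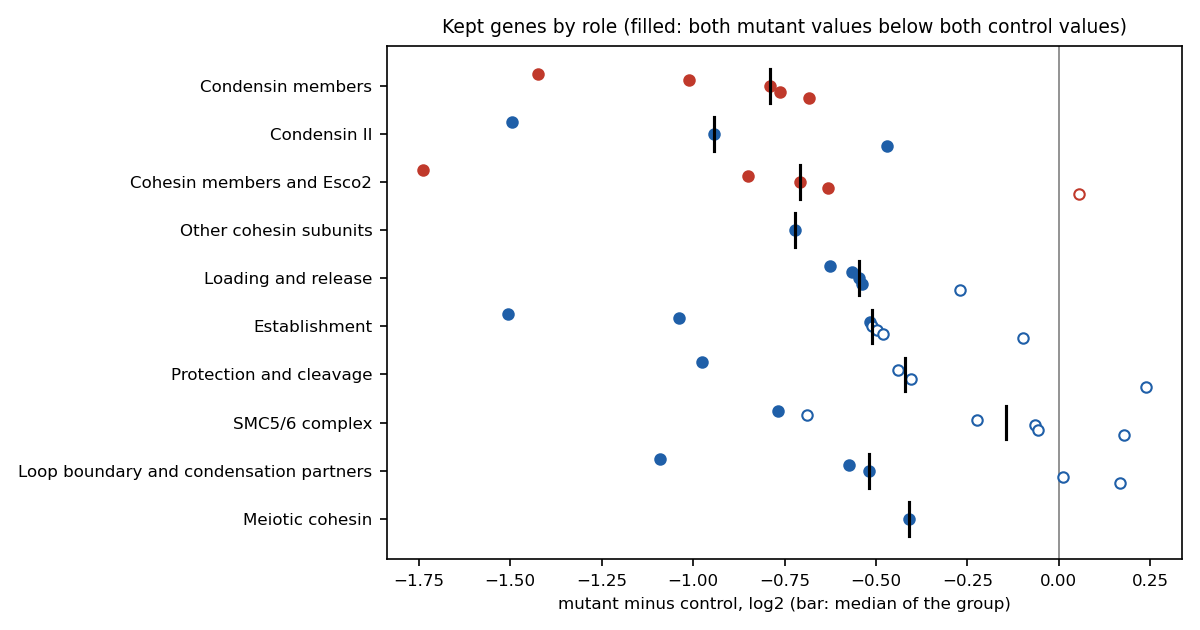
Difference between mutant and control (log2) of the kept genes by role, with the 10 members in red and the other listed genes in blue; filled points have both mutant values below both control values, and bars are medians. The condensin members and condensin II genes are filled throughout, whereas 1 of the 6 SMC5/6 genes is, against 19.2% of all kept genes.

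Markers of dividing cells also had lower levels in the mutants. Of 10 listed S phase genes, none of them a member, 10 were lower without overlap with a median of -1.10. Of 9 measured mitosis genes 9 were lower, 8 without overlap, with a median of -0.75. Over all kept genes 19.2% were lower without overlap. The mean log2 level of the 10 members was 8.55 and 8.96 in controls and 7.86 and 7.94 in mutants. That of the mitosis list was 8.97 and 9.48 against 8.14 and 8.64, and that of the S phase list 9.69 and 10.04 against 8.58 and 8.87. Set against the mitosis list in the same array, the members differed between groups by -0.02, with overlap. Against the S phase list they lay 0.28 higher in mutants, without overlap. In such bulk samples fewer dividing cells and less RNA per cell cannot be told apart. Among the 10 epithelial markers, whose median was -0.06, 6 were lower and 4 higher. The crypt-base stem cell genes Olfm4 and Lgr5 were the 2 of 10 that were lower without overlap, a share near the 19.2% of kept genes. Krt8 (0.09) was the 1 of 10 that was higher without overlap, against 2152 of 11395 kept genes. All of these are named after their values were seen. Olfm4 stood at 12.52 and 12.32 in controls and 10.93 and 11.20 in mutants (-1.36, SE 0.24, limma adjusted p = 0.768), and Lgr5 at 6.19 and 6.06 against 5.51 and 4.67 (-1.04, SE 0.44, limma adjusted p = 0.785). Goblet cell markers had 5 of 6 genes higher with a median of 0.40, and stromal and muscle markers 7 of 8 kept genes higher with a median of 0.25. The summed signal of the 9 measured stromal and muscle genes was 2620 and 5000 in controls and 4767 and 4095 in mutants, and the part of other cells in the members' values was not tested.

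Over the 4 arrays, the brightest probe sets of the members were mostly highest in control replicate 2 (8 of 10 genes). They were lowest in mutant replicate 1 (6 genes) or mutant replicate 2 (4 genes). In 11 of the 13 other kept member probe sets, control replicate 1 was above control replicate 2. The mean profile below uses the brightest probe sets only. The genes whose profile lay nearest to the mean profile of the members, by the root mean square distance of centred log2 levels over these 4 arrays, were Sorbs2 (0.022), 2310067E19Rik (0.027), Nmral1 (0.040), Ube2s (0.045) and H2bc21 (0.053). Among the members Smc2 was nearest to that profile (0.060), with 9 other kept genes nearer, and Esco2 was farthest (0.531). With 4 arrays many genes share a profile, and the distances are a description.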

How the data were processed

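Laser-captured crypt RNA from 2 control and 2 mutant samples was purified with a small-sample kit, amplified in 2 rounds, labelled with biotin and hybridised to single-colour arrays, per the labels. The authors deposited 1 linear intensity for each probe set and array, computed with MAS5 according to the submitters' processing notes. The sources used here do not give its scaling target or version, and detection calls were not used. Because MAS5 takes off the signal of mismatch probes, values of dim probe sets vary widely.

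The table held 45101 rows; 64 control probe sets were left out. Symbols came from the platform annotation (34945 probe sets with 1 symbol, 932 with several, 9160 with none), and the gene identifiers of all 10 members carried the same symbol in RefSeq. Values were transformed as log2(intensity + 5) and quantile-normalized, since trimmed means of the deposited signals ranged from 110 to 169. Probe sets with a mean of at least 4.79 (the 50th percentile) were kept. Mutant and control were compared with limma 3.58.1 (R 4.3.3; lmFit, eBayes with an intensity trend, no covariate, two-sided, 2 residual and 6.4 prior degrees of freedom), and p-values were adjusted by Benjamini-Hochberg over the 22519 kept probe sets. Fold changes on this scale understate the change of dim probe sets. Each SE is that of the limma fit. The fit was tested on simulated data.

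The members, lists and tests were chosen with earlier results of these data known. Pathway genes were named where their groups did not overlap, up to 8 by smallest p; others are marked as named after their values were seen. Marker lists covered crypt epithelium, goblet, enterocyte, Paneth, pancreatic, immune, stromal, endothelial and dividing cells. Enterocyte (6 genes), Paneth (4), leukocyte (5) and endothelial (3) kept markers had medians of 0.05, -0.30, 0.30 and -0.01, and the 10 epithelial ones -0.06. Alternatives covered scaling, pseudocount, filter, variance model, a replicate block, leaving out each array, and averaging a gene's probe sets. Protein sequences were not used here.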

Additional observations from a re-analysis of the deposited data

How the results depend on the processing

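The 9 members other than Stag1 kept a difference below 0 and an adjusted p above 0.05 in every alternative run, and the median of the members ranged from -0.97 (without control replicate 1) to -0.61 (median centring). Over all kept probe sets, the count past the test was 0 in each direction as reported. It was 20 lower and 81 higher with median centring, 2 higher with the values as deposited and 1 higher with the replicate block; leaving out 1 array gave 0 to 12 lower and 0 to 78 higher. None of these were members (0 of 10 in each alternative). Members without overlap numbered 5 with median centring. Stag1 turned to -0.30 and Nsmce1 to -0.43 with the mean of all probe sets. Leaving out 1 array gave -0.29 to 0.39 for Stag1, -0.16 to 0.64 for Pttg1, -0.032 to 0.39 for Nsmce1, -0.20 to 0.54 for Mcph1 and -0.39 to 0.42 for Akap8; the cause was not tested. The samples share only a replicate number: deviations of same-numbered arrays correlated at 0.034 over kept probe sets. With the number as a block 7 members were lower at an unadjusted p under 0.05 instead of 6. Over all 22519 kept probe sets 945 were, instead of 797. The 75th percentile filter left 8 of the 10 members, without Ncapg and Esco2. Leaving out an array leaves 1 sample in a group, which is assumed to vary like the others.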
